A study of Mus musculus with 12 samples.

Results

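Striatal RNA of mice labelled cGAS-KO was compared with that of wild-type (WT) mice 14 days after ischemic stroke, gene by gene, in 4 of the 12 libraries of the series. The members of the comparison were the 2 libraries whose labels give genotype cGAS-KO and day 14 and the 2 whose labels give WT and day 14, and every gene with enough reads was tested, 19822 in all. The cGAS-KO mice carry a CRISPR-Cas9 disruption of Cgas on a C57BL/6J background, and the WT mice have the same strain label. The other groups used were STING-KO at day 14 and both WT and cGAS-KO at day 7, again with 2 libraries each. Every group had the stroke, and no uninjured group was analysed here. Age and sex are not given in the sources used here. The labels do not say whether the 2 libraries of a group came from separate mice, so each p-value speaks only of the spread between these libraries, which may be technical.

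cGAS is an enzyme that binds DNA in the cytosol and makes the second messenger cGAMP, which activates the adaptor STING. STING in turn recruits the kinase TBK1, and the transcription factors IRF3 and NF-kB then induce type I interferons and inflammatory cytokines. Secreted interferons bind a receptor on the cell surface and switch on interferon-stimulated genes, many of which carry an interferon-stimulated response element in the promoter. After ischemic stroke, resident microglia respond within the lesion, monocytes and neutrophils enter from the blood, and the medium spiny projection neurons of the striatum are among the cells at risk.

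The 4 libraries had totals of 16826409 and 17579858 counts (WT) and 22126213 and 21253580 counts (cGAS-KO), within the range of the series (15956242 to 22126213). A floor of 3 counts was 0.133 to 0.175 CPM in them, where CPM is the count scaled by the TMM-adjusted library total and is given for replicate 1 and then replicate 2. These floors cover counting error only. The mitochondrial share was 9.96% and 6.86% in WT and 8.54% and 7.94% in cGAS-KO. Striatal projection neuron markers were present in all 4: Ppp1r1b (DARPP-32) had 126 and 103 CPM in WT and 249.9 and 506 CPM in cGAS-KO. The median absolute log2 change among 15152 genes with a mean log2 CPM of at least 1 was 0.195, beside 0.220 between the WT replicates and 0.198 between the cGAS-KO replicates. The first is a difference between means of 2 libraries and the others are between single libraries, so they are not on an equal footing. The same median was 0.506 for STING-KO against WT at day 14 and 0.687 for cGAS-KO against WT at day 7.

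The targeted transcript stayed detectable in the cGAS-KO libraries. Cgas (ENSMUSG00000032344; mm10, chromosome 9, 78430526 to 78443237, minus strand) had 12.6 and 7.68 CPM in WT and 4.09 and 6.15 CPM in cGAS-KO. Both cGAS-KO values lay below both WT values, and the log2 change of -0.98 ± 0.28 did not pass the test (edgeR adjusted p = 0.27, unadjusted p = 0.00494). Gene-level counts cannot show a small insertion or deletion that leaves the transcript in place, so the genotypes are used as labels. Tmem173, the gene of STING, had 22.3 and 20.8 CPM in WT and 18.4 and 18.1 CPM in cGAS-KO and did not pass either (-0.24 ± 0.23, adjusted p = 0.737). Its level was 2.40 and 5.21 CPM in the STING-KO libraries of the same day. Of 27 tested cGAS-STING signalling genes, 7 stood lower and 1 higher by the unadjusted p at 0.05, beside 5.55% and 5.47% of all genes. The median log2 change was -0.14. Cgas, Ifi204, Zbp1, Ddx58 and Ifih1 were among the lower genes. Of these, Ifi204 is also in the Ifi200 family list, and Zbp1, Ddx58 and Ifih1 are in the list of interferon-stimulated genes. The kinase gene Tbk1 had 47.7 and 45.8 CPM in WT and 41.8 and 43.01 CPM in cGAS-KO (-0.14 ± 0.13), and the groups did not overlap, but the change was about the size of its SE.

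Because the groups differ in a sensor upstream of interferon, promoters were searched for the core of the interferon-stimulated response element, which is GAAA, any 2 bases and GAAA, on both strands (TTTC, any 2 bases and TTTC on the other strand). A window with several matches counted once, also where they overlap, and no other motif was searched. The search used the RefSeq promoter windows of GRCm38.p6, which run from 250 bases before to 50 after each annotated start. Of all 32851 windows, 3.44% held the core. By gene, it was found in 20 of the 51 interferon-stimulated genes with a window, in 7 of 10 of the Ifi200 family of DNA-binding proteins and in 10 of 11 guanylate-binding and immunity-related GTPases, against 1079 of 27025 genes overall (3.99%). It was also found in 1 of 22 monocyte and macrophage genes and 0 of 17 neutrophil genes. The windows below belong to genes whose values follow. They let the core of 5 neighbouring Ifi200 genes be compared with that of an oligoadenylate synthetase, 2 GTPases and 2 classical interferon-stimulated genes. Capitals mark the core with 25 bases on each side, and each sequence reads 5′ to 3′ along the strand of its gene, before the start site. Isg15 holds 3 overlapping matches and Ifit1 2, of which 1 is marked.
Ifi205, chr1:174031855-174031914, minus strand: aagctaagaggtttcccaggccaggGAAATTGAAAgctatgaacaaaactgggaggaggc
Ifi207, chr1:173741816-173741875, minus strand: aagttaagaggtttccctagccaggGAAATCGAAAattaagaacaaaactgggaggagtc
Ifi211, chr1:173913049-173913108, minus strand: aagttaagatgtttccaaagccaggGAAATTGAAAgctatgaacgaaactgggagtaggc
Ifi213, chr1:173599311-173599370, minus strand: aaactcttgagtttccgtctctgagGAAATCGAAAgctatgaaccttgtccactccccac
Ifi203, chr1:173942493-173942552, minus strand: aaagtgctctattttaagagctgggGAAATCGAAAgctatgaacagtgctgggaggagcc
Oas3, chr5:120777700-120777759, minus strand: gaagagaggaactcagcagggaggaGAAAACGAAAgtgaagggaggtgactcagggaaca
Tgtp2, chr11:49064248-49064307, minus strand: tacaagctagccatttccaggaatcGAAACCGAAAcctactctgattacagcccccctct
Gbp7, chr3:142530258-142530317, plus strand: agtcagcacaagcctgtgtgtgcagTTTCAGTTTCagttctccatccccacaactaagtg
Ifit1, chr19:34640760-34640819, plus strand: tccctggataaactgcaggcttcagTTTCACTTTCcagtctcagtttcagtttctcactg
Isg15, chr4:156200856-156200915, minus strand: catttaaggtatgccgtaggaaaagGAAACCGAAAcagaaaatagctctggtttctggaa
Over these 60 bases Ifi205 and Ifi211 were identical at 54 and Ifi205 and Ifi207 at 52, while Ifi207 and Ifi213 were identical at 29. The core began 134 bases before the start in Ifi205, 75 in Oas3 and 35 in Ifi203. Of the 6 genes called below, 4 had a window and 1 of these, Clec4d, held the core, after its start site, so it is not shown. A match is a description of the letters and not a bound site.

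At an adjusted p below 0.05, 6 genes differed between the genotypes, and all 6 were lower in cGAS-KO (edgeR quasi-likelihood test with Benjamini-Hochberg adjustment, the source of every adjusted p below). That is 0.0303% of the genes tested. In the other direction edgeR called 0 genes (0.00%), while 1084 genes (5.47%) stood higher and 1101 (5.55%) lower by the unadjusted p at 0.05. DESeq2 called 57 genes higher and 94 lower, the same 6 among them. All 6 encode products of myeloid cells or of coagulation and matrix. In bulk tissue, fewer cells of a type and less RNA per cell cannot be told apart.

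Clec4d, a C-type lectin receptor of monocytes and neutrophils that recognises mycobacterial and fungal glycolipids (ENSMUSG00000030144; mm10, chromosome 6, 123262111 to 123275265, plus strand), had 3.505 and 1.59 CPM in WT and 0.133 and 0.0946 CPM in cGAS-KO. The cGAS-KO values rest on 3 and 2 reads, and the 2 groups did not overlap. Clec4d fell by 4.38 ± 0.58 on the log2 scale (edgeR adjusted p = 0.0114). Msr1, the scavenger receptor of macrophages that takes up modified lipoproteins and debris (ENSMUSG00000025044; mm10, chromosome 8, 39581685 to 39642673, minus strand), had 19.6 and 16.6 CPM in WT and 3.87 and 4.45 CPM in cGAS-KO. Replicates lay close together in both groups, and Msr1 fell by 2.12 ± 0.24 on the log2 scale (adjusted p = 0.0114). Slfn4, a Schlafen gene of myeloid cells that interferon induces (ENSMUSG00000000204; mm10, chromosome 11, 83175186 to 83190216, plus strand), had 31.7 and 11.6 CPM in WT and 0.489 and 1.28 CPM in cGAS-KO. Its lower WT library stood well above both cGAS-KO libraries, and the log2 change was -4.62 ± 0.58 (adjusted p = 0.0114).

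F13a1 encodes the A subunit of coagulation factor XIII, made by monocytes and resident border macrophages (ENSMUSG00000039109; mm10, chromosome 13, 36867178 to 37050244, minus strand). It had 8.18 and 9.49 CPM in WT and 0.712 and 1.37 CPM in cGAS-KO and fell by 3.09 ± 0.36 on the log2 scale (edgeR adjusted p = 0.0114). Thbs1 encodes thrombospondin-1, a matrix glycoprotein of platelets, macrophages and reactive astrocytes that activates TGF-beta (ENSMUSG00000040152; mm10, chromosome 2, 118111876 to 118127133, plus strand). It had 30.1 and 22.7 CPM in WT and 4.14 and 6.06 CPM in cGAS-KO and fell by 2.37 ± 0.30 on the log2 scale (adjusted p = 0.0233). Both belong to the list of coagulation and fibrinolysis: of its 29 tested genes 5 were lower and 0 higher by the unadjusted p (median -0.27). Mmp8, a collagenase that neutrophils store in granules (ENSMUSG00000005800; mm10, chromosome 9, 7558456 to 7568485, plus strand), had 1.69 and 3.29 CPM in WT, while neither cGAS-KO library held a read (0 counts), which makes it at least 18.1-fold lower against a floor of 3 counts per library (adjusted p = 0.0135). For each of the 6 genes the groups were fully apart.

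These calls rested on both cGAS-KO libraries. With cGAS-KO replicate 1 left out, 0 of the 6 passed (adjusted p from 0.0536 for Mmp8 to 0.0932 for Thbs1), and with cGAS-KO replicate 2 left out, 0 passed (0.0922 for F13a1 to 0.11 for Clec4d). Without WT replicate 1, 5 passed, with Thbs1 at 0.11, and without WT replicate 2, 4 passed, with Mmp8 at 0.0615. Fitted on the 4 libraries alone, Msr1, F13a1 and Thbs1 passed and the other 3 did not (up to 0.115 for Slfn4). Fitted without day 7 WT and day 14 STING-KO, Msr1 and F13a1 passed and the other 4 did not (up to 0.124 for Mmp8). Msr1 and F13a1 passed in 9 of 9 settings that kept every day 14 library of the 2 groups.

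**Figure D1:**
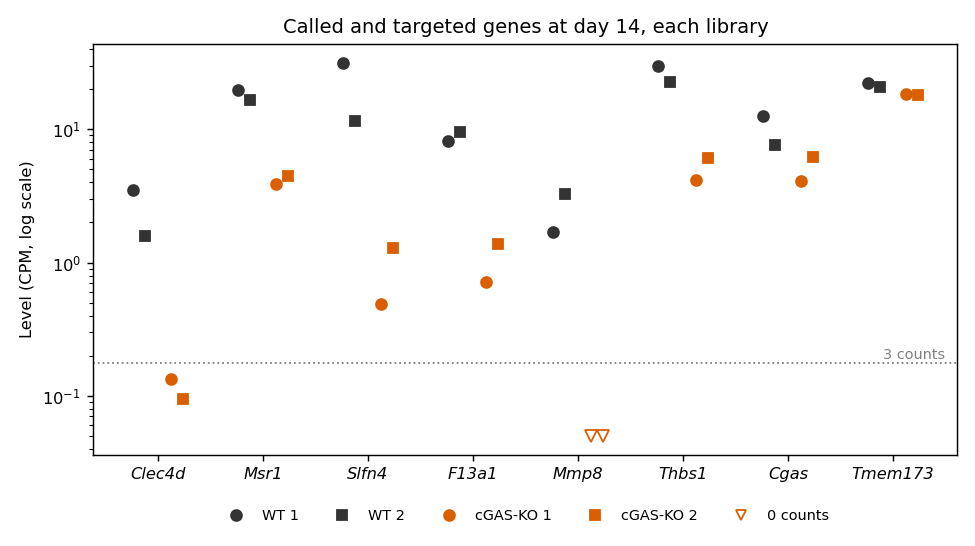
Level in CPM (log scale) of the 6 genes that passed the test and of the targeted Cgas and Tmem173 in each day 14 library; circles are replicate 1, squares replicate 2, and triangles 0 counts. In each of the 6 genes both cGAS-KO libraries lie below both WT libraries, and Clec4d in cGAS-KO lies at or under the floor of 3 counts (dotted). Tmem173 lies at 18.1 to 22.3 CPM in the WT and cGAS-KO libraries.

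**Figure D2:**
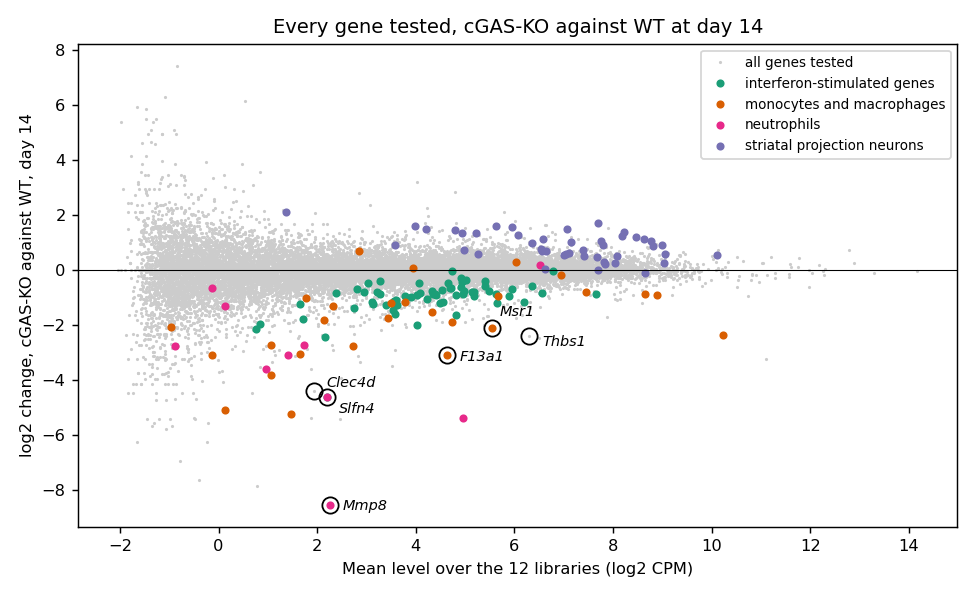
Log2 change of cGAS-KO against WT at day 14 for each of the 19822 genes tested, against its mean level over the 12 libraries (log2 CPM); circled genes passed the test. Genes of the interferon-stimulated, monocyte and macrophage, and neutrophil lists lie mostly below 0 and striatal projection neuron genes mostly above it, while the median over all genes is -0.01; the plotted change of Mmp8 depends on the prior count, since its cGAS-KO counts are 0.

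Interferon-stimulated genes stood lower in cGAS-KO as a group, with 1 of them called. Of 64 tested, 43 were lower and 0 higher by the unadjusted p at 0.05, beside 5.55% and 5.47% of all genes. Every one of the 64 had a negative log2 change, with a median of -0.87 beside -0.01 over all genes, and in 49 the libraries did not overlap, which holds for 20.2% of all genes in this direction. Slfn4 was the member that passed in edgeR, and DESeq2 called 3. The 2 cGAS-KO libraries differed within this list: 64 of 64 genes were lower in replicate 1 than in replicate 2, beside 50.7% of all genes. In WT, 57 of 64 were higher in replicate 1 than in replicate 2, beside 51.1% of all genes. The count at p below 0.05 was 12 without cGAS-KO replicate 1 (median -0.47), 56 without cGAS-KO replicate 2 (-1.41), 15 without WT replicate 1 (-0.68) and 45 without WT replicate 2 (-1.05). Monocyte and macrophage markers, described below, stood lower in the same libraries, with a summed level of 977 and 1098 CPM in WT and 539 and 541 CPM in cGAS-KO, and their part in the interferon values was not tested.

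Single members showed the same order of libraries. Isg15, a ubiquitin-like modifier, had 23.8 and 14.7 CPM in WT and 5.25 and 15.9 CPM in cGAS-KO. The level in cGAS-KO replicate 2 exceeded that in WT replicate 2, and the change was -0.87 ± 0.39 (edgeR adjusted p = 0.448). Ifit1, which binds uncapped viral RNA, had 94.7 and 49.7 CPM in WT and 15.8 and 48.02 CPM in cGAS-KO (-1.18 ± 0.45, adjusted p = 0.383), and its lowest WT and highest cGAS-KO values nearly met. Oas3, a synthetase of the RNase L activator, had 20.7 and 16.8 CPM in WT and 1.33 and 5.72 CPM in cGAS-KO (-2.42 ± 0.52, adjusted p = 0.159). Among the interferon-stimulated genes that did not pass, 2 came closest. Ifi27l2a had 58.6 and 40.2 CPM in WT and 9.88 and 14.8 CPM in cGAS-KO (-2.0 ± 0.31, adjusted p = 0.0614). Ube2l6, the conjugating enzyme for ISG15, had 59.4 and 40.4 CPM in WT and 19.98 and 24.6 CPM in cGAS-KO (-1.16 ± 0.20, adjusted p = 0.0956). Their groups were apart, as were those of 2 nucleic acid sensors. Ifih1, the RNA sensor MDA5, had 47.1 and 35.7 CPM in WT and 14.7 and 25.2 CPM in cGAS-KO (-1.05 ± 0.27, adjusted p = 0.234). Zbp1, a sensor of Z-form nucleic acid, had 26 and 18.7 CPM in WT and 5.61 and 13.8 CPM in cGAS-KO (-1.21 ± 0.42, adjusted p = 0.352).

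In the Ifi200 family, whose promoters are shown above, 8 of 10 tested members were lower by the unadjusted p at 0.05 and 0 higher, with a median of -1.20. Neither edgeR nor DESeq2 called a member. Ifi205 had 1.75 and 2.09 CPM in WT and 0.178 and 0.426 CPM in cGAS-KO (-2.66 ± 0.55, edgeR adjusted p = 0.152). Ifi213 had 21.8 and 17.5 CPM in WT and 1.82 and 8.28 CPM in cGAS-KO (-1.97 ± 0.54, adjusted p = 0.255). Ifi207 had 47.4 and 45.9 CPM in WT and 13.3 and 21.5 CPM in cGAS-KO (-1.42 ± 0.34). Ifi211 had 10.05 and 10.8 CPM in WT and 3.07 and 6.53 CPM in cGAS-KO (-1.13 ± 0.40, adjusted p = 0.352). Ifi203 had 11.9 and 20.1 CPM in WT and 5.43 and 10.7 CPM in cGAS-KO (-0.995 ± 0.348, adjusted p = 0.352). All 10 members were lower in cGAS-KO replicate 1 than in replicate 2, beside 50.7% of all genes. Ifi204, a DNA sensor reported to act upstream of STING, had 49.1 and 39.5 CPM in WT and 11.7 and 28.7 CPM in cGAS-KO (-1.13 ± 0.46, adjusted p = 0.406). Without cGAS-KO replicate 1 the family's count was 3. The family members have similar sequences and lie in 1 cluster on chromosome 1, so reads may be shared among them.

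Guanylate-binding proteins and immunity-related GTPases, which attack the vacuoles of intracellular pathogens, gave 11 of 18 lower by the unadjusted p at 0.05 and 0 higher (median -0.99), and 0 were called by edgeR or by DESeq2. Tgtp2 had 6.89 and 4.39 CPM in WT and 1.11 and 2.65 CPM in cGAS-KO (-1.59 ± 0.47, edgeR adjusted p = 0.279). Gbp7 had 51.3 and 38.4 CPM in WT and 21.3 and 27.6 CPM in cGAS-KO (-0.88 ± 0.24, adjusted p = 0.255). For both, the groups did not overlap. Gbp2 had 52.8 and 35.5 CPM in WT and 20.9 and 42.5 CPM in cGAS-KO (-0.48 ± 0.42), with overlapping groups. The count was 2 without cGAS-KO replicate 1 and 3 without WT replicate 1. MHC class I and immunoproteasome genes, which present peptides to CD8 T cells, gave 8 of 20 lower and 0 higher (median -0.68), with 0 called by either tool. The count was 2 without cGAS-KO replicate 1 and 3 without WT replicate 1, but 13 with only the 4 libraries fitted and 15 without day 7 WT and day 14 STING-KO. H2-K1 had 454 and 485 CPM in WT and 183 and 268 CPM in cGAS-KO (-1.06 ± 0.40, adjusted p = 0.376) and its groups did not overlap. B2m, the light chain, had 1159 and 1085 CPM in WT and 637 and 831 CPM in cGAS-KO (-0.61 ± 0.34, adjusted p = 0.539). Of the 13 class II genes, 1 was lower and 1 higher (median -0.43).

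**Figure D3:**
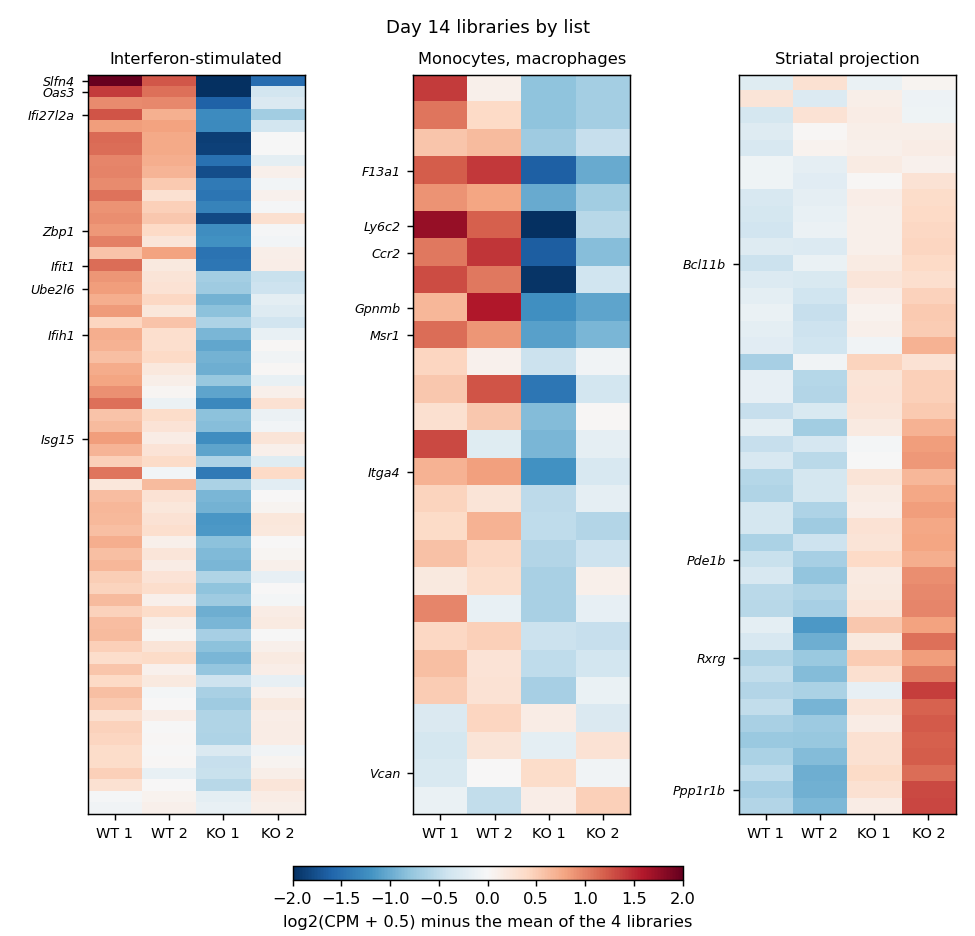
Log2(CPM + 0.5) in each day 14 library minus the mean of the 4, for the members of 3 lists, 1 row a gene, sorted by log2 change, with the genes described in the text labelled. In the interferon-stimulated list 64 of 64 genes are lowest in cGAS-KO 1 (KO 1), in the monocyte and macrophage list 21 of 27 are (20.4% of all genes), and in the striatal projection list 40 of 45 are highest in cGAS-KO 2 (KO 2; 28.5% of all genes).

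Genes of monocytes and macrophages stood lower in cGAS-KO: 17 of 27 tested by the unadjusted p at 0.05 and 0 higher, with a median of -1.73. Msr1 and F13a1 passed in edgeR, and DESeq2 called 8. Ccr2, the chemokine receptor that brings monocytes out of the marrow, had 9.697 and 12.6 CPM in WT and 1.07 and 2.22 CPM in cGAS-KO (-2.77 ± 0.46, edgeR adjusted p = 0.0902). Ly6c2, the surface marker of inflammatory monocytes, had 14.96 and 10.1 CPM in WT and 0.4 and 2.65 CPM in cGAS-KO (-3.05 ± 0.54, adjusted p = 0.0956). Itga4, an integrin subunit of entering leukocytes, had 19.1 and 20.9 CPM in WT and 4.72 and 9.23 CPM in cGAS-KO (-1.52 ± 0.28, adjusted p = 0.104). In each of these the WT libraries lay fully above the cGAS-KO libraries. Not every member stood lower: Vcan, made also by glial precursors, had 72.5 and 90.2 CPM in WT and 116 and 85.5 CPM in cGAS-KO (0.31 ± 0.17). The count stayed at 13 to 17 whichever of the 4 libraries was left out. No member was at 0 counts in cGAS-KO.

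Of 19 neutrophil genes listed, 10 passed the filter on low counts, and 7 of these were lower and 0 higher by the unadjusted p at 0.05 (median -2.93). Mmp8 and Slfn4 passed in edgeR, and DESeq2 called 6. The WT replicates differed widely here. S100a9, a calcium-binding alarmin, had 8.18 and 0.933 CPM in WT and 0.311 and 0.426 CPM in cGAS-KO (-3.59 ± 1.09, edgeR adjusted p = 0.285). S100a8, its partner, had 7.07 and 1.76 CPM in WT and 0.4 and 0.615 CPM in cGAS-KO (-3.10 ± 0.70, adjusted p = 0.187). In both, WT replicate 1 was the high library. Without it, 4 of the 10 were lower at p below 0.05. Lcn2, an iron-chelating protein of neutrophils and reactive astrocytes, had 248 and 21.7 CPM in WT and 3.69 and 2.697 CPM in cGAS-KO (-5.39 ± 1.07, adjusted p = 0.148). Of the 10 tested genes 1, Csf3r, had a positive log2 change (0.21 ± 0.41). Csf3r had 127 and 135 CPM in WT and 141 and 162 CPM in cGAS-KO, and its groups did not overlap.

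Of 19 myeloid C-type lectin receptors, 9 were lower and 0 higher by the unadjusted p at 0.05. Their median was -1.15 as fitted and -0.72 with Cd209f, which had 0 counts in both cGAS-KO libraries, left at its bound. Besides Clec4d, its neighbour Clec4e (Mincle), which recognises products of dead cells, had 1.46 and 0.988 CPM in WT, while cGAS-KO held 0 reads and 1 read (edgeR adjusted p = 0.159). Clec4n (Dectin-2) had 1.58 and 1.37 CPM in WT and 0.178 and 0.473 CPM in cGAS-KO (-2.17 ± 0.60, edgeR adjusted p = 0.254). Clec7a (Dectin-1), which activated microglia express strongly, had 134 and 147 CPM in WT and 125 and 112 CPM in cGAS-KO (-0.24 ± 0.51, adjusted p = 0.9). Clec7a had the highest level of these receptors, and its change was smaller than its SE.

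Among 34 chemokines and chemokine receptors, 15 were lower and 1 higher by the unadjusted p at 0.05 (median -0.80); edgeR called 0 and DESeq2 called 5. Ligands for monocytes were among the low ones: Ccl2 had 4.67 and 4.39 CPM in WT and 0.979 and 1.37 CPM in cGAS-KO (-1.95 ± 0.45, edgeR adjusted p = 0.189). Ccl7 had 2.28 and 2.03 CPM in WT and 0.222 and 0.568 CPM in cGAS-KO (-2.44 ± 0.47, adjusted p = 0.119). Cxcl10, the interferon-induced ligand that draws T cells, had 46.4 and 35.1 CPM in WT and 13.8 and 23.04 CPM in cGAS-KO (-1.15 ± 0.48, adjusted p = 0.411). Ccr1, a chemokine receptor of monocytes and neutrophils, had 2.51 and 1.76 CPM in WT and 0.267 and 0.284 CPM in cGAS-KO (-2.92 ± 0.46, adjusted p = 0.0566), with 6 reads in each cGAS-KO library. In all 4 genes the groups did not overlap. Of 40 cytokines and their receptors, 6 were lower and 1 higher (median -0.25), and of 35 NF-kB, Toll-like receptor and inflammasome genes, 10 were lower and 0 higher (median -0.34).

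T and NK cell genes gave 12 of 24 lower and 1 higher by the same threshold (median -0.96), with 0 called by edgeR or DESeq2. By the same unadjusted threshold DESeq2 gave 4 lower, the legacy form of the edgeR test 6, and the fit without day 7 WT and day 14 STING-KO 8. Gzma, the granzyme of cytotoxic cells, had 1.81 and 0.878 CPM in WT and no read in either cGAS-KO library (0 counts), at least 9.76-fold lower against the floor (edgeR adjusted p = 0.108). Nkg7, a cytotoxic granule gene, had 3.68 and 2.58 CPM in WT and 1.07 and 1.47 CPM in cGAS-KO (-1.30 ± 0.38, adjusted p = 0.255). Cd3e, the gene of CD3 epsilon, had 1.93 and 2.41 CPM in WT and 0.845 and 1.61 CPM in cGAS-KO (-0.83 ± 0.49, adjusted p = 0.562). Its cGAS-KO values rest on 19 and 34 reads. Cd4 was the member that stood higher, at 11.1 and 8.07 CPM in WT and 13.3 and 28.4 CPM in cGAS-KO. This gene is also in the list of indirect-pathway striatal neurons, and it had 29.0 and 40.6 CPM in STING-KO at day 14. Of 24 genes, 19 were lowest in cGAS-KO replicate 1, beside 20.4% of all genes, and without that library the lower count was 4. It was 7 without WT replicate 2. B cell and plasma cell genes did not share this sign: of 9 tested, 7 had a positive log2 change (median 0.24) and 0 passed by the unadjusted p.

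**Figure D4:**
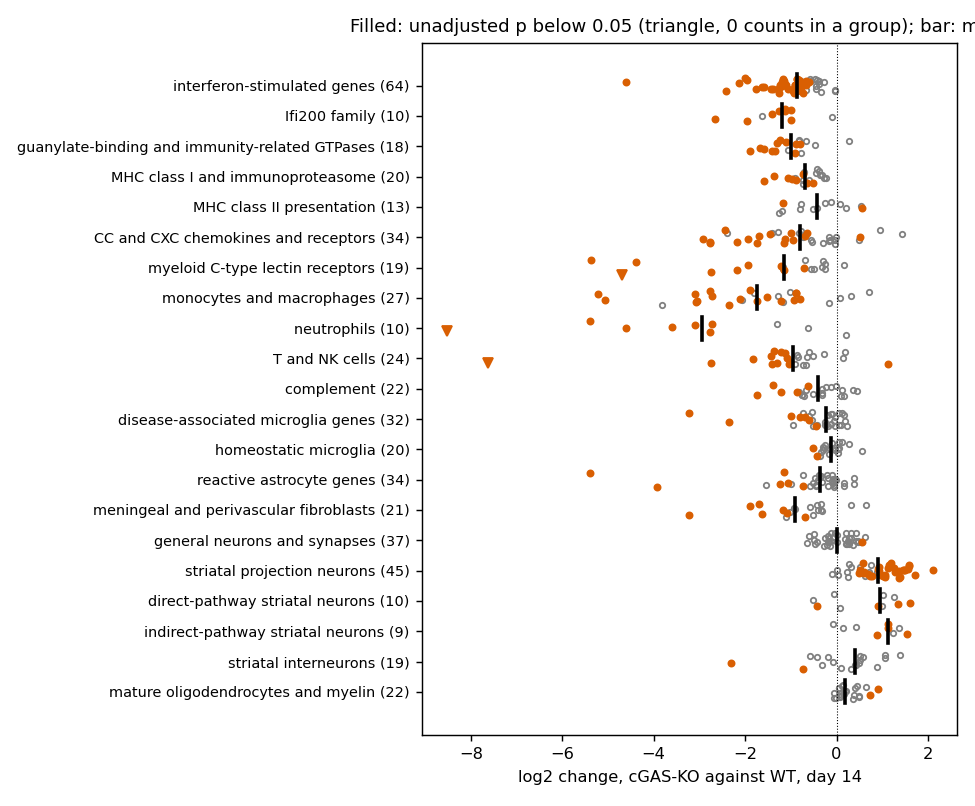
Log2 change of every tested member of 21 lists (number tested in brackets); filled symbols have an unadjusted p below 0.05, triangles have 0 counts in a group and a fitted value that depends on the prior count, and the bar is the median. Interferon, monocyte and neutrophil lists lie left of 0 with medians of -0.87, -1.73 and -2.93, homeostatic microglia at -0.11, and striatal projection neuron genes right of 0 at 0.90.

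Of 20 homeostatic microglia genes, 2 were lower and 0 higher by the unadjusted p at 0.05 (median -0.11), and 0 were called by edgeR or DESeq2. In 9 of the 20 both cGAS-KO libraries lay below both WT libraries and in 0 above, beside 20.2% and 20.7% of all genes, and the log2 changes ran from -0.52 to 0.56. Fitted without day 7 WT and day 14 STING-KO, 4 were lower. P2ry12, the purinergic receptor that guides microglial processes, had 120.2 and 119 CPM in WT and 134 and 113 CPM in cGAS-KO (0.05 ± 0.16), and the groups overlapped. Tmem119 had 87.6 and 78.97 CPM in WT and 67.6 and 67.1 CPM in cGAS-KO (-0.31 ± 0.28). Aif1 (IBA1) had 57.7 and 38.6 CPM in WT and 34.4 and 32.5 CPM in cGAS-KO (-0.52 ± 0.22, edgeR adjusted p = 0.411). Of 32 disease-associated microglia genes, 7 were lower and 0 higher (median -0.24), and 14 were lower with only the 4 libraries fitted. Trem2, the lipid receptor that drives this state, had 338 and 309 CPM in WT and 305 and 326 CPM in cGAS-KO (-0.04 ± 0.57), with overlapping groups. The lipid-droplet coat gene Plin2, which foamy phagocytes express, had 55.4 and 85.01 CPM in WT and 40.7 and 37.5 CPM in cGAS-KO (-0.85 ± 0.26, adjusted p = 0.282). Of 45 cell cycle genes 3 were lower and 0 higher (median -0.27).

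Within the disease-associated list, 2 secreted or membrane glycoproteins had the lowest log2 changes. Spp1, osteopontin, had 692 and 1085 CPM in WT and 92.4 and 97.03 CPM in cGAS-KO (-3.23 ± 0.48, edgeR adjusted p = 0.0608). Gpnmb had 177 and 339.9 CPM in WT and 47.3 and 53.6 CPM in cGAS-KO (-2.36 ± 0.50, adjusted p = 0.167). For both, the WT libraries lay far above the cGAS-KO libraries, WT replicate 2 highest. Macrophages also express these 2 genes, and Gpnmb is in the monocyte and macrophage list too. Ctsb, a lysosomal protease, had 3006 and 3064 CPM in WT and 2124 and 1874 CPM in cGAS-KO (-0.60 ± 0.23, adjusted p = 0.385). Over 43 lysosomal genes the median was -0.20, with 8 lower and 0 higher at p below 0.05. Complement genes gave 5 of 22 lower and 0 higher (median -0.42), and 9 lower with only the 4 libraries fitted. C3 had 177 and 91.98 CPM in WT and 43.7 and 37.2 CPM in cGAS-KO (-1.73 ± 0.47, adjusted p = 0.255). C5ar1, the receptor of the anaphylatoxin C5a, had 19.3 and 19.4 CPM in WT and 6.99 and 7.81 CPM in cGAS-KO (-1.39 ± 0.29, adjusted p = 0.159). C1qa, which microglia make, had 349.6 and 393 CPM in WT and 296 and 504 CPM in cGAS-KO (0.11 ± 0.42).

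Reactive astrocyte genes gave 6 of 34 lower and 0 higher by the unadjusted p at 0.05 (median -0.36), and edgeR called 0 where DESeq2 called 4. WT replicate 1 was the highest of the 4 libraries in 29 of the 34. The share over all genes compares the WT libraries only: 51.1% were higher in WT replicate 1 than in WT replicate 2. Gfap, the intermediate filament of reactive astrocytes, had 5018 and 2279.8 CPM in WT and 3652 and 3232 CPM in cGAS-KO (-0.08 ± 0.48), so both cGAS-KO values lay between the WT values. Steap4, a metalloreductase, had 28.04 and 5.54 CPM in WT and 1.201 and 0.994 CPM in cGAS-KO (-3.92 ± 0.71, edgeR adjusted p = 0.109). Cp, ceruloplasmin, had 71.9 and 60.1 CPM in WT and 28.3 and 27.9 CPM in cGAS-KO (-1.23 ± 0.26, adjusted p = 0.159) with close replicates. Without WT replicate 1 the list's median was -0.01, and without WT replicate 2, 10 genes were lower.

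Fibroblast genes followed the other WT library. Of 21 genes of meningeal and perivascular fibroblasts, 7 were lower and 0 higher (median -0.90), edgeR called 0 and DESeq2 3. WT replicate 2 was the highest of the WT and cGAS-KO libraries in 13. The share over all genes compares the WT libraries only: 51.1% were higher in WT replicate 1 than in WT replicate 2. Col3a1, a fibrillar collagen, had 8.12 and 63.2 CPM in WT and 11.4 and 10.6 CPM in cGAS-KO (-1.70 ± 0.71, edgeR adjusted p = 0.415). Lum, a collagen-binding proteoglycan, had 4.44 and 14.6 CPM in WT and 2.76 and 2.37 CPM in cGAS-KO (-1.90 ± 0.55, adjusted p = 0.279). In Col3a1 WT replicate 1 lay below both cGAS-KO libraries. The count was 4 with either cGAS-KO library left out and 4 with no filter. Without WT replicate 2 it was 2, the median -0.52, and the change of Col3a1 0.43 (adjusted p = 0.849).

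Genes of striatal projection neurons stood higher in cGAS-KO. Of 45 genes expressed in both output pathways, 32 were higher and 0 lower by the unadjusted p at 0.05, beside 5.47% higher among all genes. The median was 0.90, and in 42 the libraries did not overlap, which holds for 20.7% of all genes in this direction. In edgeR 0 of them passed, and DESeq2 called 7. Ppp1r1b, whose values are given above and which encodes the dopamine-regulated phosphatase inhibitor, had a change of 1.72 ± 0.44 (edgeR adjusted p = 0.239). Rxrg, a retinoid receptor of these neurons, had 23.8 and 21.7 CPM in WT and 52.1 and 65.7 CPM in cGAS-KO (1.37 ± 0.22, adjusted p = 0.0614). Pde1b, a phosphodiesterase that limits cyclic nucleotides after calcium entry, had 229 and 195 CPM in WT and 409 and 513 CPM in cGAS-KO (1.12 ± 0.22, adjusted p = 0.136). In both genes the lower cGAS-KO library stood well above the higher WT library. Bcl11b (CTIP2), the transcription factor that marks the type, had 70.04 and 85.6 CPM in WT and 106 and 124 CPM in cGAS-KO (0.56 ± 0.40, adjusted p = 0.632). In Bcl11b too the groups were apart, but the change was near its SE.

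The cGAS-KO libraries differed from each other in this list as well. Of the 45 genes, 41 were higher in cGAS-KO replicate 2 than in replicate 1, and 40 were highest of all 4 libraries there, beside 28.5% of all genes. Without that library the count of genes higher at p below 0.05 was 10 and the median 0.62; without cGAS-KO replicate 1 the count was 32. Without WT replicate 1 the count was 23, and without WT replicate 2 it was 18. The 2 output pathways had like medians, 0.95 over 10 direct-pathway and 1.12 over 9 indirect-pathway genes. Drd1, the receptor of the direct pathway, had 42 and 33.9 CPM in WT and 61.1 and 89.1 CPM in cGAS-KO (0.98 ± 0.61, edgeR adjusted p = 0.581). Drd2, that of the indirect pathway, had 38.4 and 25.6 CPM in WT and 58.7 and 107 CPM in cGAS-KO (1.38 ± 0.64, adjusted p = 0.458). Penk, the precursor of enkephalins, had 132 and 108 CPM in WT and 260.2 and 441 CPM in cGAS-KO (1.54 ± 0.56, adjusted p = 0.364).

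Other neuronal lists differed in sign. General neuronal and synaptic genes gave 1 of 37 higher and 0 lower (median 0.01). All 37 were lower in WT replicate 1 than in WT replicate 2, while 51.1% of all genes were higher in WT replicate 1. Cortical excitatory neuron genes gave 3 of 17 lower and 0 higher (median -0.37). Slc17a7, the vesicular glutamate transporter of cortex and hippocampus, had 199 and 439 CPM in WT and 294 and 131 CPM in cGAS-KO, a spread between replicates that covers both groups. Striatal interneuron genes gave 2 of 19 lower (median 0.41). Mature oligodendrocyte genes gave 2 of 22 higher (median 0.18), beside 5.47% of all genes. Of the 22, 13 lay higher without overlap, which holds for 20.7% of all genes. Of 13 oligodendrocyte precursor genes 2 were higher (median 0.32). Endothelial genes (median -0.07), choroid plexus genes (-0.09) and ependymal genes (0.11) had 1, 0 and 0 members at p below 0.05. Activity-dependent genes gave 5 of 30 higher and 3 lower (median 0.22): Egr1 had 52.7 and 118 CPM in WT and 131 and 218 CPM in cGAS-KO (1.02 ± 0.38, edgeR adjusted p = 0.373), while Fos had 23.7 and 26.9 CPM in WT and 20.4 and 29.9 CPM in cGAS-KO (-0.01 ± 0.35). The part of the dissected region in the striatal values was not tested.

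Some transcripts near the threshold have near-identical copies elsewhere in the genome and are uncertain. The mitochondrial mt-Co3 had 422 and 261 CPM in WT and 87.3 and 35.96 CPM in cGAS-KO (-2.47 ± 0.36, edgeR adjusted p = 0.0566), while mt-Co1 had 33696 and 21948 CPM in WT and 27262 and 27381 CPM in cGAS-KO (-0.03 ± 0.25). Over 15 mitochondrial genes 1 was lower and 1 higher (median 0.01). The higher one, mt-Atp8, was high in 1 library, with 0.818 and 0.384 CPM in WT and 13.9 and 0.284 CPM in cGAS-KO; without that library its change was -1.06. Gapdh, at 23.2 and 24.7 CPM in WT and 40.5 and 36.5 CPM in cGAS-KO (0.68 ± 0.14, adjusted p = 0.159), has many processed pseudogenes. Among 73 cytosolic ribosomal protein genes 9 were higher and 0 lower (median 0.16), and 36 were highest in cGAS-KO replicate 2, beside 28.5% of all genes. Rpl23a, one of them, had 29.9 and 27.9 CPM in WT and 50.8 and 132 CPM in cGAS-KO (1.66 ± 0.35, adjusted p = 0.159).

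Among the 15 rises and 15 falls with the smallest p that met the rule for named genes, a few are in no list. Itga8, an integrin subunit, had 8.295 and 8.89 CPM in WT and 2.76 and 3.41 CPM in cGAS-KO (-1.48 ± 0.24, edgeR adjusted p = 0.0711). Cd300ld, a myeloid receptor, had 3.91 and 5.54 CPM in WT and 0.356 and 0.568 CPM in cGAS-KO (-3.35 ± 0.57, adjusted p = 0.0956). On the other side, Pkp4, a junctional plakophilin, had 544 and 541 CPM in WT and 882 and 1003 CPM in cGAS-KO (0.80 ± 0.16, adjusted p = 0.136), and Doc2b, a calcium sensor of vesicle release, had 21.4 and 23.1 CPM in WT and 35.2 and 59.4 CPM in cGAS-KO (1.09 ± 0.21, adjusted p = 0.135). Their libraries did not overlap, and none of these 4 passed.

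The difference between genotypes at day 14 was set against that at day 7 by an interaction term, which takes the cGAS-KO effect at day 14 minus that at day 7. It passed in 4160 genes as lower (21.0% of those tested) and in 3111 as higher (15.7%). The day 7 comparison itself called 22.4% of genes lower and 27.8% higher in cGAS-KO. At day 7 Msr1 had 0.617 and 0.205 CPM in WT and 85.8 and 93.7 CPM in cGAS-KO, or 7.78 ± 0.33. It was thus higher in cGAS-KO at day 7 and lower at day 14, and the interaction was -9.90 ± 0.41 (edgeR adjusted p = 2.99e-07). Thbs1 had 2.36 and 3.53 CPM in WT at that day, against 175 and 152 CPM in cGAS-KO (interaction -8.16 ± 0.45, adjusted p = 9.8e-07). Of the 64 interferon-stimulated genes 61 had a lower effect at day 14 and 1 a higher one, of the 27 monocyte and macrophage genes 25 and 1, and of the 45 striatal projection neuron genes 0 and 32. The day 7 WT libraries stood apart in their tissue markers: Ppp1r1b was at 49.98 and 38.96 CPM and Neurod6, a cortical and hippocampal neuron gene, at 136 and 142 CPM, beside 9.81 and 26.4 CPM in day 14 WT. The part of these libraries in the interaction was not tested, and day and library set cannot be told apart.

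At day 14 the cGAS-KO libraries were also compared with the STING-KO libraries. In cGAS-KO 3612 genes (18.2%) were higher and 3500 (17.7%) lower. Of the 64 interferon-stimulated genes 55 were higher in cGAS-KO than in STING-KO and 0 lower (median 1.85), and of the 20 MHC class I genes 18 were higher and 0 lower (median 1.55). Of the 20 homeostatic microglia genes 20 were higher (median 1.35), as were 27 of the 32 disease-associated ones (median 2.12). Of the 45 striatal projection neuron genes 38 were lower in cGAS-KO than in STING-KO and 0 higher (median -1.53). Drd1 had 376 and 325 CPM in the STING-KO libraries. On these medians the cGAS-KO values lay between those of WT and STING-KO. The median against WT was -0.87 for interferon-stimulated genes in cGAS-KO and -2.89 in STING-KO, and 0.90 and 2.31 for striatal projection neuron genes. Both of these share the WT libraries, and STING-KO against WT called 17.4% of all genes lower and 16.5% higher. Without cGAS-KO replicate 2, 4632 genes differed between cGAS-KO and STING-KO, and without STING-KO replicate 1, 4728.

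Leukocyte genes were compared in the same way. Of 27 monocyte and macrophage genes 8 were higher and 1 lower in cGAS-KO (median 0.56), and of 10 neutrophil genes 1 and 1 (median -0.07). F13a1 had 2.1 and 0.716 CPM in STING-KO and differed from cGAS-KO by -0.46 ± 0.47 (edgeR adjusted p = 0.468). Clec4d had 0.12 and 0.0651 CPM in STING-KO, under the floor of 3 counts. Msr1 (0.54 and 1.17 CPM in STING-KO) and Thbs1 (1.8 and 2.41 CPM) were higher in cGAS-KO than in STING-KO, by 2.29 ± 0.35 (adjusted p = 0.000689) and 1.28 ± 0.38 (adjusted p = 0.0226). A p that misses the threshold does not show that F13a1 or the neutrophil genes were equal.

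**Figure D5:**
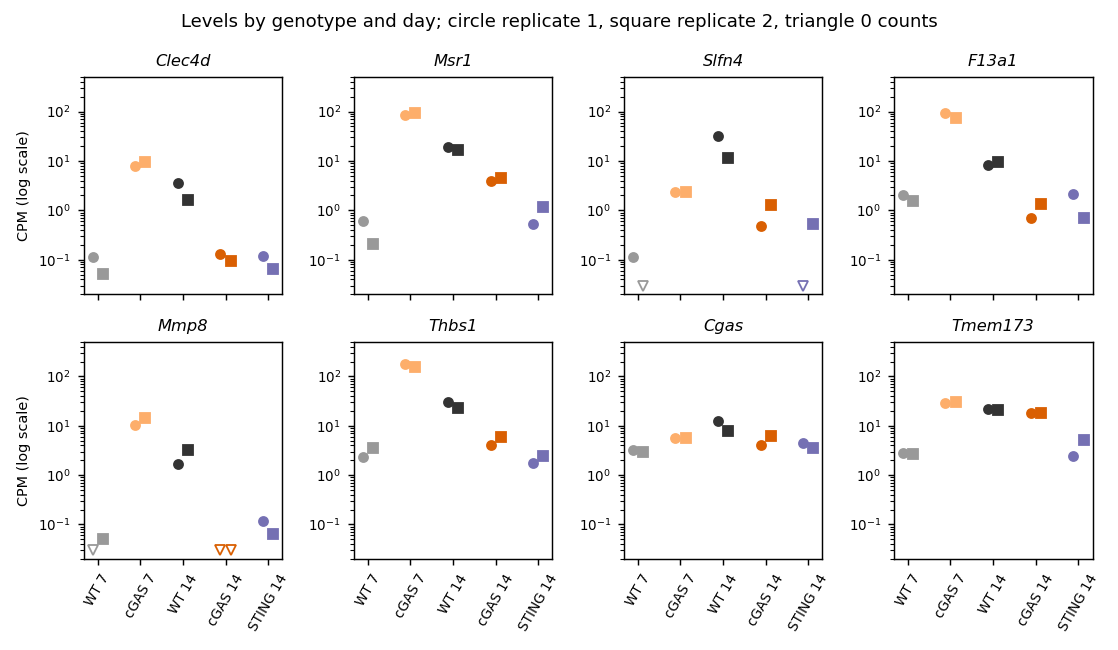
Level in CPM (log scale) of the 6 called genes, Cgas and Tmem173 in the libraries of WT and cGAS-KO at day 7 and of WT, cGAS-KO and STING-KO at day 14; circles are replicate 1, squares replicate 2, triangles 0 counts. Each of the 6 genes is higher in cGAS-KO than in WT at day 7 and lower at day 14, where the STING-KO libraries lie below WT as well. The 6 genes were chosen by their change against the same day 14 WT libraries, so the place of STING-KO below WT is not independent of that choice.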

How the data were processed

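PolyA+ RNA of mouse striatum was read in pairs on an Illumina HiSeq instrument, per the labels' protocols. The authors deposited 1 table of raw counts for each library, by Ensembl gene ID. Per the submitters' processing notes HISAT2, featureCounts and mm10 were used, with versions, annotation and strand setting not given in the sources used here, so reads of overlapping or antisense genes may be shared. Symbols and coordinates come from GENCODE M21 (54495 of 54532 IDs matched), promoter windows from RefSeq (GRCm38.p6).

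All 12 libraries (15956242 to 22126213 counts) entered 1 edgeR 4.0.16 fit in R 4.3.3 with 1 factor of 6 groups: filterByExpr (minimum count 10, minimum total 15), TMM factors, robust quasi-likelihood test without the legacy form, 6 residual degrees of freedom. P-values were Benjamini-Hochberg adjusted over 19822 genes, with a threshold of 0.05. Each SE was taken as the absolute log2 change divided by the root of the F statistic. No error rate from simulated data is given here for this fit.

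The 55 gene lists, the members and the rule for named genes were chosen with earlier results of these data known; 10 list entries matched no single ID. The rule names Cgas and Tmem173, every called gene, the 15 rises and 15 falls with the smallest p (mean log2 CPM of at least 1, groups apart), the first 3 genes of each list and up to 5 members with the smallest p, the 8 largest rises and falls of the 2 other tests, and promoters holding the core. Alternatives were DESeq2 1.42.0 (size factors, Wald test), no or a stricter filter, fewer groups in the fit, a replicate block, the legacy form and leaving out each library, where the library left alone in its group was assumed to vary like the other groups.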

Additional observations from a re-analysis of the deposited data

Results flagged for a closer look

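By the interaction term of the edgeR quasi-likelihood fit, the effect of the cGAS-KO label differed between day 14 and day 7 in all 6 called genes. It also differed in both targeted genes. The 6 genes were chosen by their day 14 change, which is part of this term, so their passing it was favoured in advance. The term passed as lower in 21.0% of all genes tested. The day 7 WT libraries stood apart in their tissue markers, and their part in the term was not tested. In the 6 called genes the sign turned: each was higher in cGAS-KO than in WT at day 7 and lower at day 14. The day 14 effect minus the day 7 effect, on the log2 scale, was -11.0 ± 0.79 (adjusted p = 6.37e-07) for Clec4d, -9.90 ± 0.41 (adjusted p = 2.99e-07) for Msr1, -9.89 ± 1.27 (adjusted p = 5.54e-05) for Slfn4, -8.62 ± 0.48 (adjusted p = 6.94e-07) for F13a1 and -8.16 ± 0.45 (adjusted p = 9.8e-07) for Thbs1. For Mmp8 the fitted value was -17.1 ± 1.22 (adjusted p = 1.62e-06); it depends on the prior count, since both day 14 cGAS-KO libraries had 0 counts, and is no bound. Slfn4 and Clec4d had under 3 counts in each day 7 WT library, so their sizes depend on it as well.

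Cgas stood at 3.25 and 2.97 CPM in WT and 5.55 and 5.66 CPM in cGAS-KO at day 7, and at 12.6 and 7.68 CPM and 4.09 and 6.15 CPM at day 14, a difference of effects of -1.83 ± 0.43 (adjusted p = 0.00557). Tmem173 stood at 2.804 and 2.71 CPM in WT and 28.7 and 30.3 CPM in cGAS-KO at day 7, with a difference of -3.65 ± 0.36 (adjusted p = 1.54e-05). With 2 libraries a group, no group was large enough for a test of single outlying libraries.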

How the results depend on the processing

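The count of 6 genes between cGAS-KO and WT at day 14 was 151 with the DESeq2 Wald test, 29 with no filter (34462 genes tested) and 16 with only the libraries compared, 3 of the 6 among them. It was 5 to 9 in the other settings that kept every library, and 0 to 18 with 1 library left out, the 0 without cGAS-KO replicate 2 (edgeR; 4.88% of genes lower and 2.65% higher by the unadjusted p at 0.05), the 18 without cGAS-KO replicate 1 (15 higher, 3 lower, 0 of the 6), 10 without WT replicate 1 and 9 without WT replicate 2. The count of 7271 genes with a different effect at day 14 and day 7 ran from 5292 to 7795 over all alternatives. The count of 7112 between cGAS-KO and STING-KO was 4614 with only the libraries compared and 4632 to 7291 with 1 library left out. Signs turned for mt-Atp8, at -1.06 without cGAS-KO replicate 1 (3.58 with it, and from -1.06 to 4.53 with any 1 library left out), and Col3a1, at 0.43 without WT replicate 2 (-1.70 with it, and from -2.54 to 0.43). The medians of the interferon, monocyte, neutrophil and striatal projection lists kept their sign in 13 of 13 settings. Same-numbered day 14 WT and cGAS-KO libraries deviated with a correlation of -0.161, and the labels give the numbers no meaning beyond a name. With the replicate number as a block, 9, 7332 and 7188 genes passed in the 3 comparisons, and with the day 14 cGAS-KO numbers crossed, chosen after seeing the data, 8 passed in the first. For Clec4d, Mmp8, Clec4e and Gzma depth limits the size of the change, since the cGAS-KO values are at or under 3 counts.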
